A study of Mus musculus with 24 samples.

Results

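The proteasome is the complex that degrades proteins marked with ubiquitin, and the 48 genes described here were taken as its subunits, activators and assembly factors. They were chosen by name, as every row whose symbol is Psma to Psmg followed by a number, if 4 or more of the 24 libraries reached a normalised value of 1. All 48 rows of that name passed the filter, out of 17111 genes in the table and 16985 that passed it. By role they are 7 alpha ring genes (Psma1 to Psma7), 8 beta ring genes (Psmb1 to Psmb7 and Psmb11), 3 immunoproteasome genes (Psmb8, Psmb9 and Psmb10), 6 ATPase genes of the cap (Psmc1 to Psmc6), 14 non-ATPase genes (Psmd1 to Psmd14), 4 activator genes (Psme1 to Psme4), 1 inhibitor gene (Psmf1) and 4 assembly genes (Psmg1 to Psmg4). The last, Psmc3ip, was taken by its name only: it encodes a meiotic recombination factor and no proteasome subunit.

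The RNA came from muscle stem cells of mice, which carry the transcription factor PAX7 and regenerate injured muscle, in 6 groups of 4 libraries. The KO groups have the genotype label L2A-Pax7CreER and the WT groups the label L2A-WT. Each genotype was sampled uninjured (day 0) and at days 1 and 4 after cardiotoxin, which comes from snake venom and kills myofibres, was given into muscle (50 µL at 10 µM). LAMP2A is the lysosomal receptor of chaperone-mediated autophagy, a route of protein breakdown separate from the proteasome, and Cre driven from Pax7 acts in cells that express or expressed Pax7. Age, sex, how Cre was induced, whether WT mice carried Cre and whether a library holds 1 animal or a pool are not given in the sources used here, so p-values rest on the spread between libraries. For fold changes that spread is estimated for each gene over all 24 libraries, groups outside the comparison included. It was wider at day 0 than at day 1, as given below.

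In the proteasome, stacked alpha and beta rings form a barrel with the cutting sites inside, and a cap on either end binds ubiquitin chains, removes them, and unfolds and feeds the substrate inwards with its ATPases. Activators can take the place of the cap, and in immune signalling the catalytic beta subunits are exchanged for their immunoproteasome counterparts. The ubiquitin-proteasome system is best known in muscle for breaking down contractile proteins in atrophy. In mice, deleting the ATPase gene Psmc4 in muscle stem cells is known to deplete them and to impair regeneration.

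Promoters of 5 members are shown as examples from the catalytic and activator genes described below. They were picked because each holds a match to an element known from proteasome gene control, and not by the size of their changes. The antioxidant response element core (TGACNNNGC) is bound by NFE2L1 and NFE2L2, and the interferon-stimulated response element (GAAANN followed by GAAA) and the gamma-interferon activated site (TTCNNNGAA) are elements of interferon-induced genes. The sequences are 300-base windows from RefSeq on GRCm38.p6, read 5′ to 3′ on the gene's strand, with the match in capitals. The first 3 mark the antioxidant response element core, the fourth the interferon-stimulated response element and the last the gamma-interferon activated site, and in Psme4 and Psme1 the match lies on the opposite strand.
Psmb5 promoter, chr14:54617946-54618245, minus strand: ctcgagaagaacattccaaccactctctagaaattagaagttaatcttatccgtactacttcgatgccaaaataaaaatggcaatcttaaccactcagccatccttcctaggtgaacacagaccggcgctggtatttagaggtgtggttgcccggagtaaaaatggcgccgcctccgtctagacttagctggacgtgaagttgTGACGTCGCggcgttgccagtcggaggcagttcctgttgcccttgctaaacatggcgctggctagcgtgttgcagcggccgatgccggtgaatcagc
Psmb6 promoter, chr11:70525107-70525406, plus strand: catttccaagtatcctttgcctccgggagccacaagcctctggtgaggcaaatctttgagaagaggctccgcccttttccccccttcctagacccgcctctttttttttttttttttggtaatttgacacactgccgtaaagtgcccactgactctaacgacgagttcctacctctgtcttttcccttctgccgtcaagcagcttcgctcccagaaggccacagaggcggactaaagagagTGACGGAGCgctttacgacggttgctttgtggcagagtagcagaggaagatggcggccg
Psme4 promoter, chr11:30771525-30771824, plus strand: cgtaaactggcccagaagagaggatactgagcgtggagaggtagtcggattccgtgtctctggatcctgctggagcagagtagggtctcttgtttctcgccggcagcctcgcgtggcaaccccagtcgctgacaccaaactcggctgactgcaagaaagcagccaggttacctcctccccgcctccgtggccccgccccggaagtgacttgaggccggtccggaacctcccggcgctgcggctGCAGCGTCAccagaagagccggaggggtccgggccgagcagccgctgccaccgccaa
Psme1 promoter, chr14:55578244-55578543, plus strand: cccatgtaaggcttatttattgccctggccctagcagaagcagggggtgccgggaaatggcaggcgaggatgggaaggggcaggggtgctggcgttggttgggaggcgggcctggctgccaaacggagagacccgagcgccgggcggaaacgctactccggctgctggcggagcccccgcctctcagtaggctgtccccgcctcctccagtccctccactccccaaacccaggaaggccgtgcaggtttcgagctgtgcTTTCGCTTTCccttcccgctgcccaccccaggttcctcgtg
Psmb8 promoter, chr17:34197945-34198244, plus strand: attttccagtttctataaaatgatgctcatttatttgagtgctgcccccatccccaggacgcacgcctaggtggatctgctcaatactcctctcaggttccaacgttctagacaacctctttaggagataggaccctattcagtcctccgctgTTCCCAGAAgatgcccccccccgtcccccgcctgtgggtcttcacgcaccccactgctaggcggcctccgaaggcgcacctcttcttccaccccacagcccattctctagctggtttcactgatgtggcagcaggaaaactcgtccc

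RefSeq windows were found for 41 of the 48 members, 44 windows in all. On either strand, the antioxidant response element core was in 6 of the 44 windows (13.6%), against 12.4% of all 32851 promoter windows of that length. The interferon-stimulated response element was in 5 (11.4%, against 3.4% of all windows), the gamma-interferon activated site in 3 (6.8%, against 8.3%), the NF-Y box CCAAT in 15 (34.1%, against 37.4%) and the TATA box TATAAA in 4 (9.1%, against 13.6%). These are letter matches in a short window and say nothing of binding.

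Library totals ran from 11.58 to 22.47 M reads. The summed normalised value of 9 muscle stem cell markers, Pax7 among them, was 2740 to 3780 in KO and 2410 to 4680 in WT libraries at days 0 and 1. At day 4 it was 1070 to 1230 in KO and 1060 to 1210 in WT libraries. The sum of 12 macrophage and monocyte markers stayed between 7.22 and 112 in the libraries of days 0 and 1. At day 4 it was 918 to 1000 in KO and 1020 to 1460 in WT libraries. Fibro-adipogenic progenitor markers (6 genes) summed at day 0 to 1420 to 1750 in KO and 479 to 881 in WT libraries. Myofibre markers (6 genes) summed to 25.9 to 61.8 in KO and 3.58 to 8.31 in WT libraries at day 0, and to 12 to 45.9 in KO and 135 to 191 in WT libraries at day 1. Lamp2 is in the table as a whole gene, which checks neither the labels nor the LAMP2A splice form. It had means of 582 in KO and 676 in WT libraries at day 0, 390 in KO and 415 in WT libraries at day 1, and 222 in KO and 209 in WT libraries at day 4.

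Proteasome genes took up more of each library at day 1 than at day 0 or day 4. Together the 48 members held 0.485% to 0.555% of counts in KO libraries at day 0, 1.444% to 1.603% at day 1 and 0.294% to 0.363% at day 4. In WT libraries they held 0.485% to 0.573% at day 0, 1.585% to 1.735% at day 1 and 0.521% to 0.567% at day 4. The day 1 libraries of both genotypes stood apart from all others, and at day 4 the KO libraries lay below the WT libraries without overlap. At day 4 the 10 genes with most counts in a library held 48.8% to 54.1% of its counts in KO and 31.2% to 35.5% in WT libraries. Such genes held 16.7% to 22.6% in KO and 19.6% to 24.1% in WT libraries at day 0. At day 1 they held 7.5% to 8.9% in KO and 5.5% to 6.0% in WT libraries. Their part in the higher share at day 1 and the lower share at day 4 was not tested. In bulk RNA, fewer cells of a type and less RNA per cell cannot be told apart.

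**Figure D1:**
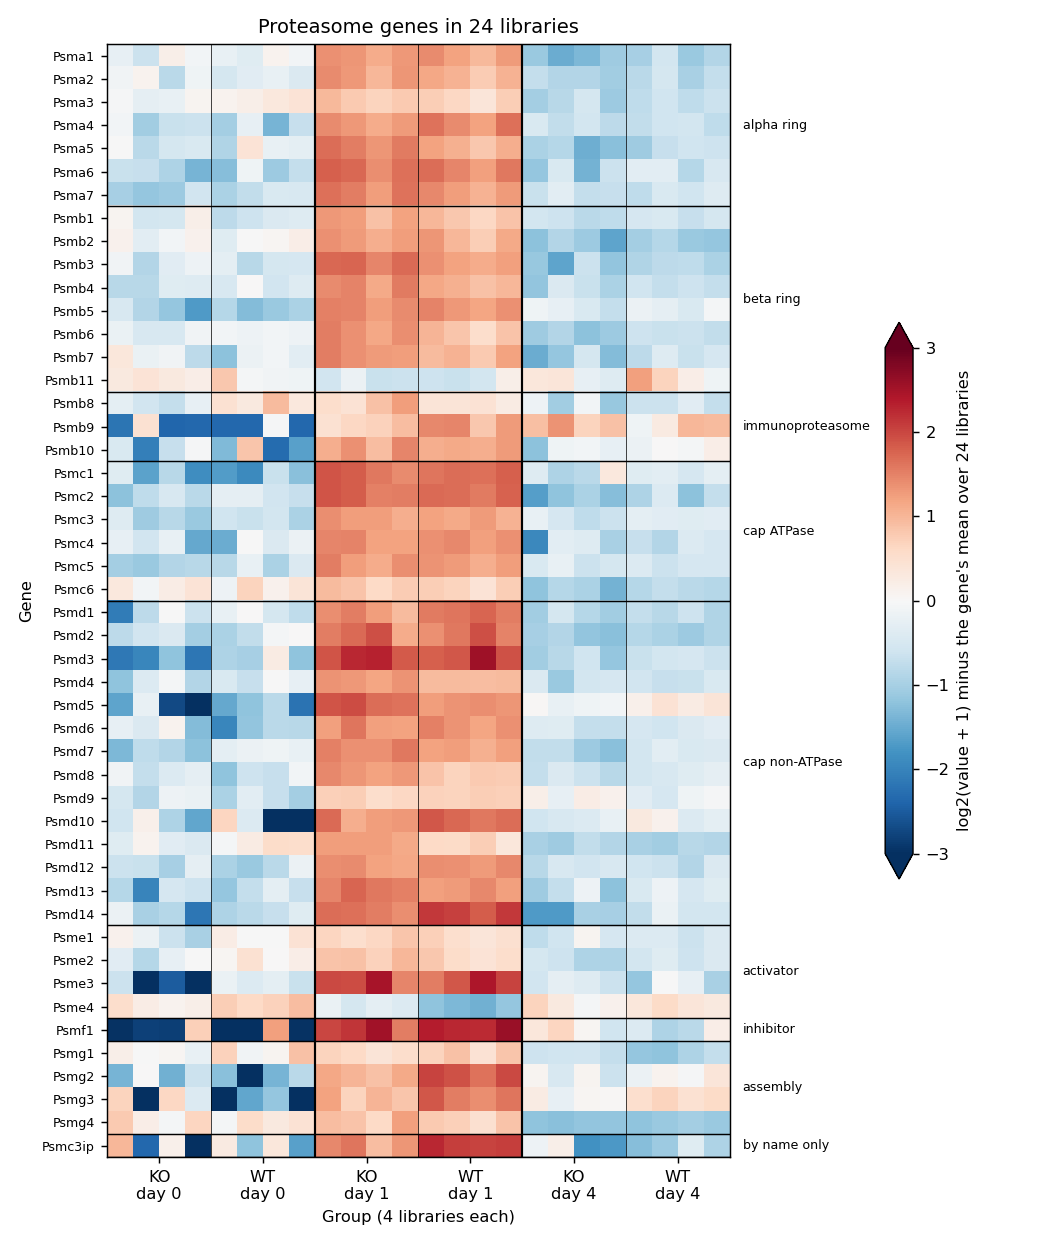
Proteasome genes (rows, grouped by subclass) in the 24 libraries (columns, KO left of WT within each day); colour is log2(value + 1) minus the gene's mean over all libraries, and the ends of the scale also take values beyond it. The day 1 columns are high for most rows, and Psme4 and Psmb11 are low there.

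At day 1, 45 of the 48 members rose in KO cells, where 24.2% of all genes tested rose, and 41 rose in WT cells, where 27.7% of all genes did. The members' median log2 fold change was 1.96 in KO and 1.86 in WT cells, against -0.01 for all genes tested in each genotype. In the other direction 2 members fell in KO cells (21.5% of all genes), Psme4 and Psmb11. The 1 that fell in WT cells (24.9% of all genes) was Psme4. Fold changes are on the scale of log2(value + 1) of the authors' normalised values, with the standard error (SE) after ±, and a gene is called at an adjusted p under 0.05 with limma, adjusted over all genes tested. Of these calls, 41 of 47 in KO cells and 38 of 42 in WT cells held under every setting tried. The fold changes of the 2 genotypes share no library, but their SEs and p-values rest on the same spread over all 24 libraries.

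In the alpha ring, the outer rings that gate entry to the barrel, all 7 genes rose at day 1 in both genotypes, with a median log2 fold change of 1.89 in KO and 1.39 in WT cells. Psma6 had normalised values of 743, 710.3, 562 and 679.5 in KO libraries at day 1, against 135, 133, 112 and 81.6 at day 0. In WT libraries Psma6 had values of 684, 592, 503 and 648 at day 1, against 88.4, 196, 101 and 130.2 at day 0. The groups did not overlap in either genotype, and the log2 fold change was 2.55 ± 0.22 (adjusted p = 1.95e-09) in KO and 2.29 ± 0.22 (adjusted p = 8.55e-09) in WT cells. Psma3 rose least in the ring. Its range was 1126 to 1400.0 at day 1 and 592 to 754 at day 0 in KO libraries, and 920.3 to 1196 at day 1 and 771 to 945 at day 0 in WT libraries. Its log2 fold change was 0.91 ± 0.12 (adjusted p = 6.91e-07) in KO and 0.36 ± 0.12 (adjusted p = 0.0112) in WT cells, and the WT groups overlapped. Psma4 had the largest rise of the ring in WT cells (2.31 ± 0.20, adjusted p = 7.94e-10), from libraries of 382 to 522 at day 1 and 62.6 to 139 at day 0, and its value in KO cells was 1.89 ± 0.20.

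In the beta ring 7 of 8 genes rose in both genotypes, and the exception was Psmb11, the thymus-specific catalytic subunit, which lay near the detection floor. The ring's median log2 fold change was 1.61 in KO and 1.38 in WT cells. Psmb5 carries the chymotrypsin-like site, and it had normalised values of 111, 84.05, 69.6 and 47.2 in KO libraries and 85.3, 62.5, 71.6 and 80.5 in WT libraries at day 0. They were 448, 437, 371 and 418 in KO libraries and 440.2, 387, 356 and 403 in WT libraries at day 1. Values were 142, 131, 114 and 95.6 in KO libraries and 138, 128, 114 and 151 in WT libraries at day 4. Every day 1 library lay above every library of the other days, and the rise over day 0 was 2.47 ± 0.19 (adjusted p = 1.55e-10) in KO and 2.39 ± 0.19 (adjusted p = 1.85e-10) in WT cells. Psmb7, with the trypsin-like site, had values of 124, 86.1, 91.2 and 56.3 in KO libraries and 41.6, 86.6, 92.4 and 79.1 in WT libraries at day 0. They were 286, 257, 238 and 234 in KO libraries and 189, 203, 169.7 and 228 in WT libraries at day 1. Values were 34.5, 43.6, 68.3 and 39.1 in KO libraries and 56.3, 74.9, 61.2 and 68.9 in WT libraries at day 4. Its rise was 1.54 ± 0.24 (adjusted p = 1.13e-05) in KO and 1.44 ± 0.24 (adjusted p = 2.1e-05) in WT cells, and here too the day 1 libraries did not overlap those of day 0. Psmb11 had 62 counts in all over the 4 KO libraries and 51 over the 4 WT libraries at day 0, and 14 in KO and 24 in WT libraries at day 1. Its call in KO cells (-0.82 ± 0.31, adjusted p = 0.0326) was lost without KO day 0 replicates 1, 2 or 3 or KO day 1 replicates 1, 3 or 4 (log2 fold change -0.82 to -0.77, adjusted p = 0.0516 to 0.0752 with limma).

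Cap genes also rose at day 1. All 6 ATPase genes, which form the ring that unfolds substrates, rose in both genotypes, with a median log2 fold change of 2.19 in KO and 1.87 in WT cells. Psmc1 had the largest change of them: its normalised values were 393, 375, 320.2 and 285 at day 1 against 81.8, 34.1, 58.8 and 28.4 at day 0 in KO libraries. In WT libraries Psmc1 had values of 324, 340.3, 336 and 365 at day 1 against 32.5, 27.3, 65.9 and 43.6 at day 0. The log2 fold change was 2.84 ± 0.29 (adjusted p = 1.84e-08) in KO and 3.06 ± 0.29 (adjusted p = 3.96e-09) in WT cells, with no overlap between days. Psmc6 had the smallest, 0.57 ± 0.16 (adjusted p = 0.0042) in KO and 0.38 ± 0.16 (adjusted p = 0.0452) in WT cells, from ranges of 368 to 476 at day 1 and 233 to 324 at day 0 in KO libraries and 326 to 409 and 221 to 389.8 in WT libraries. In WT cells its days overlapped, and the call was lost without WT day 0 replicates 1 or 3 or WT day 1 replicates 1, 2 or 4 (log2 fold change 0.24 to 0.37, adjusted p = 0.086 to 0.199 with limma). That WT call was also not made by edgeR.

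Among the non-ATPase genes, 14 of 14 rose in KO cells and 13 of 14 in WT cells, with medians of 2.12 in KO and 2.03 in WT cells. Psmd1 and Psmd2, the large scaffold subunits of the cap base, changed by 2.17 ± 0.27 and 2.28 ± 0.20 in KO cells and by 1.99 ± 0.27 and 2.04 ± 0.20 in WT cells on the log2 scale, all 4 called. Psmd4, a receptor for ubiquitin chains, changed by 1.93 ± 0.19 in KO and 1.29 ± 0.19 in WT cells, and Psmd14, the enzyme that cuts ubiquitin chains off the substrate, by 2.61 ± 0.27 in KO and 2.73 ± 0.27 in WT cells. The 14th gene in WT cells was Psmd11, a lid subunit, at 0.25 ± 0.14 (adjusted p = 0.129). Psmd5, Psmd9 and Psmd10 are known as chaperones of base assembly and are not part of the finished cap. Psmd5 was at 20.7, 54.3, 8.97 and 6.89 in KO libraries and 21.2, 26.8, 35.8 and 12.9 in WT libraries at day 0. It was at 236, 251, 204 and 200.4 in KO libraries and 153, 163, 168 and 161 in WT libraries at day 1. Psmd5 was at 65.6, 54.8, 58.4 and 60.1 in KO libraries and 71.2, 86.9, 75.3 and 84.00 in WT libraries at day 4. Its rise at day 1 was 3.67 ± 0.38 (adjusted p = 2.43e-08) in KO and 2.77 ± 0.38 (adjusted p = 1.25e-06) in WT cells, and no day 0 library reached the lowest library of day 1 or of day 4. Psmd9 had the smallest rise of the 14 in KO cells (1.09 ± 0.19, adjusted p = 5.11e-05), with 73.7 to 85.4 at day 1 and 27.1 to 45.6 at day 0, and it rose by 1.45 ± 0.19 in WT cells. Psmd10 had the largest rise in WT cells (3.53 ± 0.64, adjusted p = 5.84e-05), but its day 0 values there spread from 0.0385 to 26.2, and in KO cells it rose by 2.07 ± 0.64.

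**Figure D2:**
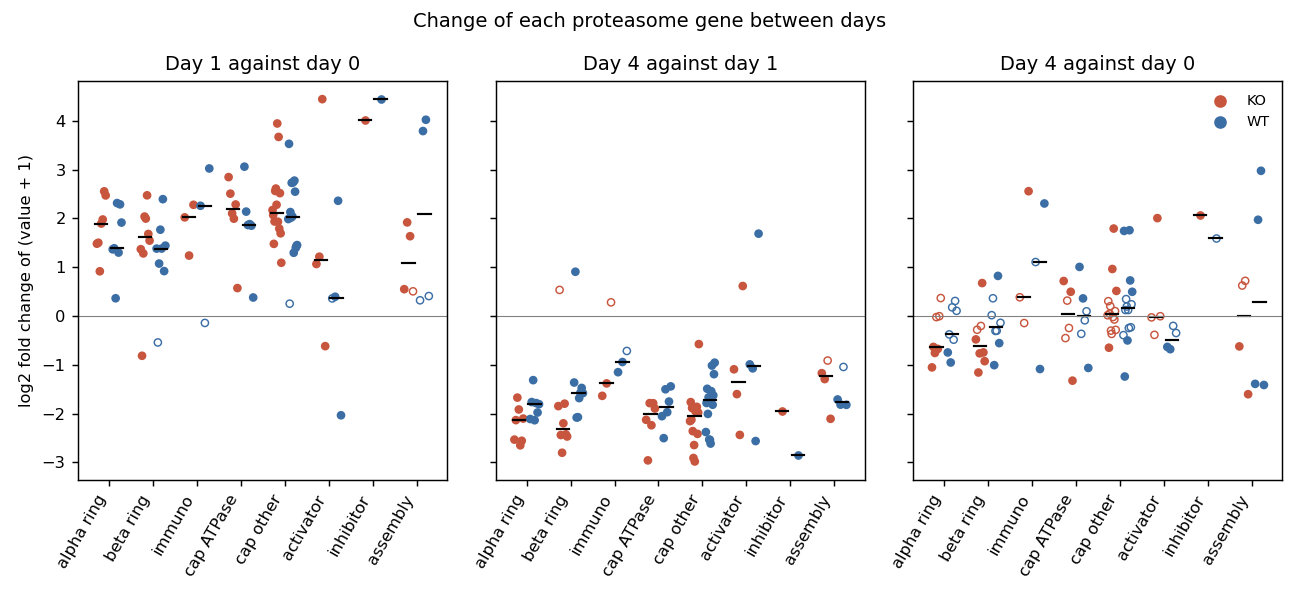
Log2 fold changes of the members except Psmc3ip (points) by subclass for the within-genotype comparisons, KO left of WT. Filled points have an adjusted p under 0.05 with limma and black bars are the median of a subclass. Most members lie above 0 at day 1 against day 0 and below 0 at day 4 against day 1. Psme4 and Psmb11 lie on the opposite side of 0 in both comparisons, in each genotype.

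Most members fell again by day 4: against day 1, 44 of 48 fell in KO cells (23.4% of all genes fell) and 44 in WT cells (22.6% of all genes). Psme4 rose in both genotypes and Psmb11 in WT cells, 1 member in KO (26.2% of all genes rose) and 2 in WT cells (27.8%). The median log2 fold change of the members was -1.97 in KO and -1.73 in WT cells, while that of all genes was 0.18 in KO and 0.22 in WT cells. All 7 alpha ring genes, 6 ATPase genes and 14 non-ATPase genes fell in both genotypes, although Psmd9 in KO cells had the other sign under quantile normalization (0.04). In the beta ring 7 of 8 genes fell in both genotypes. Of the calls, 38 of 45 in KO cells and 36 of 46 in WT cells held under every setting tried. The largest falls in KO cells were those of Psma5 (-2.65 ± 0.21, adjusted p = 1.53e-10) in the alpha ring, Psmb3 (-2.80 ± 0.17, adjusted p = 1.9e-12) in the beta ring, Psmc2 (-2.96 ± 0.19, adjusted p = 2.8e-12) among the ATPases and Psmd3 (-2.98 ± 0.27, adjusted p = 1.54e-09) in the lid. Psmc2 stood at 39.1 to 64.9 at day 4 and 360.2 to 470.2 at day 1 in KO libraries, and at 52.7 to 95.3 at day 4 and 376 to 435 at day 1 in WT libraries, so the days were far apart in both genotypes. Of 12 macrophage and monocyte markers, 12 rose in KO and 11 in WT cells at day 4 against day 1 (medians 3.98 in KO and 4.79 in WT cells). Of 9 stem cell markers, 6 fell in each genotype (medians -2.42 in KO and -2.87 in WT cells), and the part of either list in the members' fall was not tested. These comparisons use the same day 1 libraries as the rise from day 0. Under quantile normalization the all-gene median was 0.01 in KO and -0.00 in WT cells and the members' median -1.04 in KO and -0.95 in WT cells, so the size of the fall depends on the scaling.

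Against uninjured cells, day 4 showed no shared direction. In KO cells 9 members were higher (22.3% of all genes) and 13 lower (18.2%), and in WT cells 10 were higher (25.7%) and 12 lower (18.9%). In the core, 4 of 7 alpha ring and 5 of 8 beta ring genes were lower in KO cells, and 2 of 7 and 2 of 8 in WT cells. Psmb2, a structural beta subunit, was 106, 137, 118 and 83.5 at day 4 against 276, 199.9, 238 and 276 at day 0 in KO libraries, a log2 fold change of -1.16 ± 0.16 (adjusted p = 1.88e-06), and it fell by 1.01 in WT cells (adjusted p = 1.14e-05). Psmc6 fell in both genotypes as well, -1.33 ± 0.16 (adjusted p = 2.52e-07) in KO and -1.07 ± 0.16 (adjusted p = 5.54e-06) in WT cells. Psmb5 and Psmd5 rose in both: Psmb5 by 0.67 ± 0.19 in KO and 0.82 ± 0.19 in WT cells, and Psmd5 by 1.79 ± 0.38 in KO and 1.76 ± 0.38 in WT cells. The balance turned with the scaling: under quantile normalization 17 members were higher (19.8% of all genes) and 7 lower (20.1%) in KO cells. In WT cells 25 were then higher (21.1% of all genes) and 3 lower (22.8%). In WT cells Psmb2 was then at -0.12 and Psmc6 at -0.11, not called, and the KO call for Psmb5 was lost when limma was fitted to the KO libraries of days 0 and 4 alone. Calls for Psma2, Psma3, Psmb1, Psmb6 and Psmd11 in KO cells and for Psma1, Psma3, Psmb6, Psmd2 and Psme2 in WT cells changed sign there.

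The activators did not move as a block, and Psme4 moved against most of the other members. Psme4 encodes a large activator that binds the barrel in place of the cap and is linked, in mouse, to the breakdown of acetylated histones in the testis. Its normalised values were 188, 152, 139 and 147 in KO libraries and 216, 198, 211 and 248 in WT libraries at day 0. At day 1 they were 113, 89.6, 105 and 97.5 in KO libraries and 55.2, 50.3, 46.9 and 57.3 in WT libraries. They were 206, 159.7, 124 and 141 in KO libraries and 165, 193, 166 and 158 in WT libraries at day 4. The day 1 libraries were the lowest of each genotype, and all KO libraries of day 1 lay above all WT libraries of day 1. At day 1 Psme4 fell by 0.62 ± 0.15 on the log2 scale in KO cells (adjusted p = 0.00138) and by 2.04 ± 0.15 in WT cells (adjusted p = 6.08e-11), and at day 4 against day 1 it rose by 0.61 ± 0.15 in KO (adjusted p = 0.0014) and 1.69 ± 0.15 in WT cells (adjusted p = 1.73e-09).

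Psme3 encodes the nuclear activator REG gamma, which speeds the degradation of certain proteins without ubiquitin. It had values of 24.6, 1.97, 6.16 and 4.06 in KO libraries and 33.8, 29.3, 31.6 and 24.3 in WT libraries at day 0. At day 1 the values were 159, 154, 221 and 111 in KO libraries and 115, 144, 217 and 164 in WT libraries. Psme3 values were 25.8, 32.6, 29.7 and 24.9 in KO libraries and 16.99, 38.8, 32.7 and 19.5 in WT libraries at day 4. In KO libraries of day 0, replicate 1 was near the WT libraries and the other three were far below them. The rise at day 1 was 4.44 ± 0.42 (adjusted p = 5.41e-09) in KO and 2.36 ± 0.42 (adjusted p = 4.11e-05) in WT cells. Psme1 and Psme2 encode the paired subunits of the interferon-inducible activator that favours peptides for antigen presentation. Psme1 had values of 90.7, 73.4, 52.9 and 41.9 in KO libraries and 96.6, 82.6, 81.5 and 113 in WT libraries at day 0. At day 1 Psme1 had 131, 117, 129 and 148 in KO libraries and 136, 118, 107 and 117 in WT libraries at day 1. It had 48.3, 54.5, 88.00 and 58.5 in KO libraries and 61.6, 61.8, 52.7 and 61.5 in WT libraries at day 4. The libraries of days 0 and 1 overlapped in WT cells and not in KO cells. Psme1 rose at day 1 by 1.06 ± 0.20 (adjusted p = 0.000153) in KO cells and was at 0.36 ± 0.20 (adjusted p = 0.15) in WT cells. Psme2 had values of 97.7, 67.7, 104 and 122 in KO libraries and 128, 170.2, 124 and 142 in WT libraries at day 0. At day 1 Psme2 had 224, 226, 198 and 248 in KO libraries and 217, 182, 164 and 178 in WT libraries at day 1. It had 85.6, 79.9, 64.2 and 64.2 in KO libraries and 83.2, 94.98, 79.8 and 90.5 in WT libraries at day 4. Again days 0 and 1 overlapped in WT cells and not in KO cells. Psme2 rose by 1.21 ± 0.16 (adjusted p = 1.56e-06) in KO and 0.39 ± 0.16 (adjusted p = 0.0464) in WT cells, and the WT call was lost without WT day 0 replicates 1, 3 or 4 or WT day 1 replicates 1, 2 or 4 (log2 fold change 0.32 to 0.41, adjusted p = 0.0657 to 0.145 with limma). Psme2 has a near-identical copy, Psme2b, so its counts are uncertain.

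**Figure D3:**
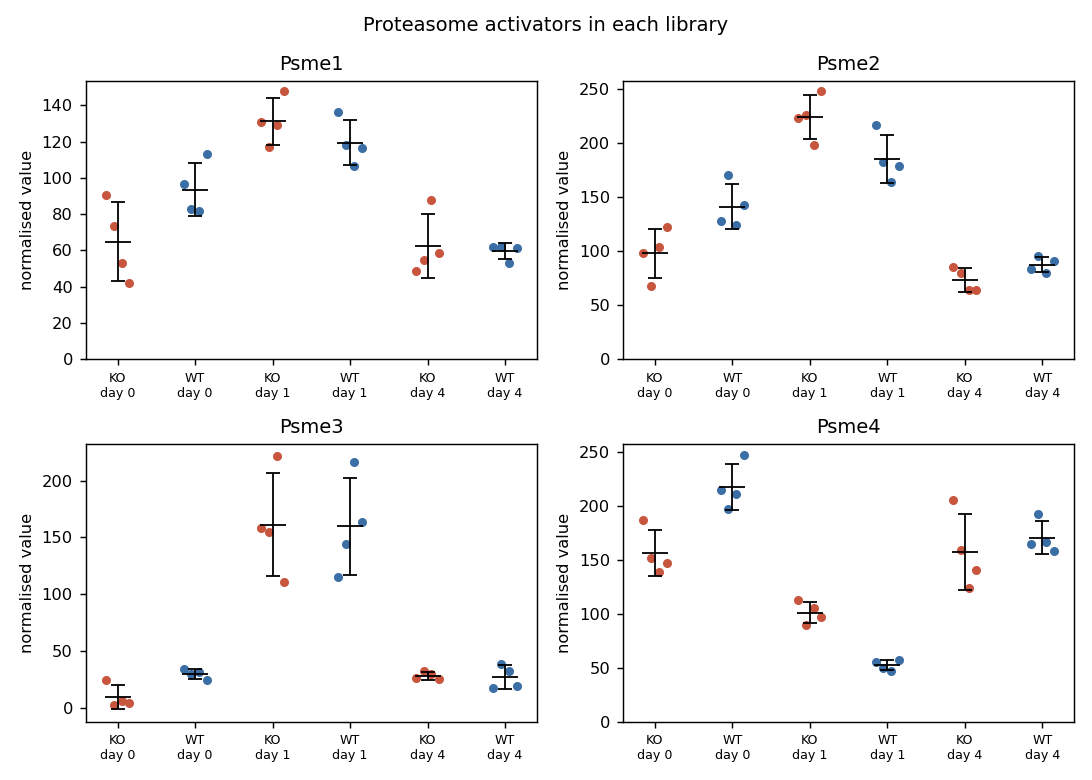
Normalised values of the activator genes Psme1 to Psme4 by day (points are libraries, bars the group mean and SD, KO left of WT). Psme3 is highest at day 1 in both genotypes, and Psme4 is lowest at day 1, with the KO libraries at 89.6 to 113 and the WT libraries at 46.9 to 57.3.

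Of the 3 immunoproteasome genes, 3 rose at day 1 in KO cells and 2 in WT cells. Psmb8, which replaces Psmb5, had normalised values of 23.9, 19.5, 17.6 and 24.6 in KO libraries and 40.6, 36.7, 57.5 and 37.2 in WT libraries at day 0. At day 1 they were 43.2, 40.3, 55.3 and 72.2 in KO libraries and 38.7, 38.7, 40.3 and 35.1 in WT libraries. Psmb8 values were 26.4, 13.8, 27.9 and 12.9 in KO libraries and 18.6, 18.6, 22.9 and 17.6 in WT libraries at day 4. Psmb8 rose at day 1 by 1.24 ± 0.25 (adjusted p = 0.000283) in KO cells and was at -0.14 ± 0.25 (adjusted p = 0.669) in WT cells. Psmb10, which replaces Psmb7, was at 12.8, 3.54, 10.7 and 17.5 in KO libraries and 6.57, 32.4, 2.81 and 5.08 in WT libraries at day 0. It was at 39.5, 47.8, 34.9 and 51.04 in KO libraries and 39.1, 40.7, 39.2 and 44.7 in WT libraries at day 1. Psmb10 was at 7.03, 16.2, 16.9 and 14.9 in KO libraries and 15.8, 18.1, 17.1 and 20.6 in WT libraries at day 4. Day 1 was the highest in both genotypes, 2.02 ± 0.47 (adjusted p = 0.00108) in KO and 2.26 ± 0.47 (adjusted p = 0.000285) in WT cells against day 0, although 1 WT library of day 0 stood apart from the other three. Psmb9, which replaces Psmb6, was near the floor at day 0, with 90 counts in all over the 4 KO libraries, most of them in replicate 2, and 54 over the 4 WT libraries, most in replicate 3. Its values were 6.30, 7.13, 7.54 and 9.01 in KO libraries and 13.4, 13.6, 8.32 and 11.8 in WT libraries at day 1. Values were 8.91, 12.5, 7.41 and 8.73 in KO libraries and 3.90, 5.41, 9.62 and 9.28 in WT libraries at day 4. Its rise at day 1 was 2.28 ± 0.55 (adjusted p = 0.00157) in KO and 3.02 ± 0.55 (adjusted p = 6.59e-05) in WT cells, as given by limma. The call was not made by edgeR in either genotype nor by DESeq2 in KO cells. Against day 1, Psmb9 was not called at day 4 (0.28 ± 0.55, adjusted p = 0.702 in KO and -0.72 ± 0.55, adjusted p = 0.29 in WT cells). Psmb9 and the peptide transporter gene Tap1 overlap on opposite strands, and the sources used here do not say whether strand was used in counting.

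The log2 ratio of each immunoproteasome gene to the gene it replaces was taken within a library as log2((a + 1)/(b + 1)). Where both values are well above the added 1, it largely takes out the scaling of the library. The ratio of Psmb8 to Psmb5 averaged -1.76 ± 0.58 (SD between libraries) in KO libraries at day 0, -3.0 ± 0.44 at day 1 and -2.58 ± 0.51 at day 4. In WT libraries it averaged -0.80 ± 0.36 at day 0, -3.34 ± 0.18 at day 1 and -2.71 ± 0.32 at day 4. The day 1 libraries of each genotype lay below those of day 0 without overlap (exact two-sided permutation p = 0.0286 in each). The ratio of Psmb9 to Psmb6, from few reads at day 0, had means of -7.40 at day 0, -6.80 at day 1 and -4.10 at day 4 in KO libraries, and of -7.78, -5.67 and -4.91 in WT libraries. At day 1 against day 0 it differed by 0.6 with overlap in KO cells (exact permutation p = 0.514), where 1 library of day 0, at -5.16, lay above all those of day 1. In WT cells the difference was 2.1 without overlap (exact permutation p = 0.0286). The sizes of both differences depend on the added 1. At day 0, Psmb9 lay far below it in all but 1 library of each genotype (0.0276 to 0.166 in KO and 0.0332 to 0.0365 in WT libraries). There the ratio does not take out the scaling of the library. The KO minus WT difference of this ratio was -1.13 at day 1 and 0.82 at day 4, both without overlap (exact permutation p = 0.0286 in each). The ratio of Psmb10 to Psmb7 averaged -3.01 at day 0, -2.53 at day 1 and -1.70 at day 4 in KO libraries, and -3.05, -2.24 and -1.81 in WT libraries. Day 4 lay above day 1 without overlap in both genotypes (exact permutation p = 0.0286 in each) but overlapped day 0 (exact permutation p = 0.0857 in KO and 0.143 in WT cells). With 4 libraries against 4, 0.0286 is the smallest p the exact test can give. Adjusted over the 27 tests of 3 pairs and 9 contrasts it came to 0.0643 here, so no ratio passed 0.05. The adjusted value depends on how many of the tests reach that smallest p. Markers of macrophages, cells known for immunoproteasome expression, were highest at day 4, as given above, and their part in these ratios was not tested.

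**Figure D4:**
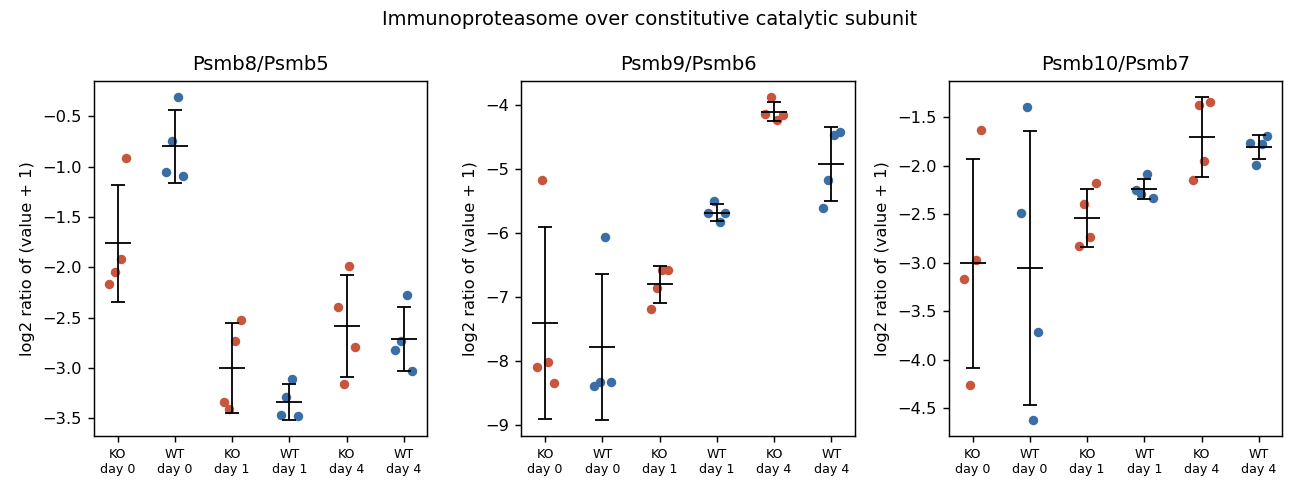
Log2 ratio of each immunoproteasome gene to the constitutive catalytic gene it replaces, by day (points are libraries, bars the group mean and SD, KO left of WT). The Psmb8 to Psmb5 ratio is highest at day 0, and the Psmb9 to Psmb6 ratio is highest at day 4, at a mean of -4.10 in KO and -4.91 in WT libraries.

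Psmf1 encodes a protein first described as a proteasome inhibitor and now also as a carrier of proteasomes. Its values were 0.431, 0.608, 0.580 and 17.3 in KO libraries and 0.172, 0.110, 25.1 and 0.432 in WT libraries at day 0. At day 1 they were 44.02, 48.2, 63.02 and 31.1 in KO libraries and 55.96, 52.3, 51.7 and 65.7 in WT libraries. Psmf1 values were 13.2, 16.3, 10.6 and 6.39 in KO libraries and 7.34, 4.91, 5.32 and 11.8 in WT libraries at day 4. At day 0 a lone library of each genotype, KO replicate 4 and WT replicate 3, held nearly all of the reads. Psmf1 rose at day 1 by 4.02 ± 0.78 (adjusted p = 0.000158) in KO and 4.44 ± 0.78 (adjusted p = 3.8e-05) in WT cells, and every day 1 library exceeded every library of day 0 and day 4.

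The assembly genes Psmg1 to Psmg4 encode chaperones that build the alpha ring. At day 1, 3 of 4 rose in KO cells and 2 of 4 in WT cells, those 2 being Psmg2 and Psmg3. Psmg2 had values of 11.1, 30.9, 10.7 and 19.04 in KO libraries and 12.3, 0.766, 10.9 and 17.1 in WT libraries at day 0. They were 69.96, 63.2, 57.3 and 67.8 in KO libraries and 127, 117, 97.03 and 124 in WT libraries at day 1. Values were 32.4, 21.4, 32.5 and 19.2 in KO libraries and 27.1, 32.97, 29.8 and 39.5 in WT libraries at day 4. At day 1 the KO libraries lay below the WT libraries without overlap, but the difference (-0.83 ± 0.46, adjusted p = 0.366) was not called. That SE comes from the model of all 24 libraries, so it takes in the spread at day 0, where Psmg2 ran from 0.766 to 30.9. The rise of Psmg2 over day 0 was 1.92 ± 0.46 (adjusted p = 0.00148) in KO and 3.79 ± 0.46 (adjusted p = 2.77e-07) in WT cells. Psmg3 was at 19.6, 0.0358, 19.2 and 8.81 in KO libraries and 0.241, 3.47, 4.81 and 0.0997 in WT libraries at day 0. It was at 29.1, 19.9, 25.6 and 22.4 in KO libraries and 46.6, 36.8, 33.2 and 38.9 in WT libraries at day 1. Psmg3 was at 14.6, 9.99, 12.5 and 12.4 in KO libraries and 17.6, 19.7, 17.04 and 18.5 in WT libraries at day 4. It rose by 4.02 ± 0.64 (adjusted p = 1.16e-05) in WT cells, and in KO cells (1.63 ± 0.64, adjusted p = 0.0399) the call was lost without KO day 0 replicate 2 or KO day 1 replicates 1, 2, 3 or 4 (log2 fold change 0.65 to 1.72, adjusted p = 0.0547 to 0.248 with limma). Neither edgeR nor DESeq2 made that KO call of Psmg3, and it was also lost under quantile normalization and with a pseudocount of 0.5. Psmg1 was at 58.6, 51.3, 53.9 and 44.5 in KO libraries and 84.2, 47.8, 55.01 and 97.1 in WT libraries at day 0. It was at 83.5, 78.9, 68.5 and 74.9 in KO libraries and 83.5, 97.1, 70.3 and 92.96 in WT libraries at day 1. Psmg1 was at 33.6, 33.8, 34.5 and 31.2 in KO libraries and 22.6, 21.8, 26.9 and 31.1 in WT libraries at day 4. The day 4 libraries were the lowest of each genotype, and days 0 and 1 overlapped in WT cells but not in KO cells. Its rise in KO cells (0.55 ± 0.20, adjusted p = 0.0272) was lost without KO day 0 replicate 4 or KO day 1 replicates 1 or 2 (log2 fold change 0.48 to 0.53, adjusted p = 0.058 to 0.0737 with limma), and its value in WT cells was 0.32 ± 0.20 (adjusted p = 0.188). Psmg4 was not called at day 1 (0.50 ± 0.21, adjusted p = 0.056 in KO and 0.41 ± 0.21, adjusted p = 0.113 in WT cells) and was lower than in uninjured cells at day 4, with 11.7, 11.3, 11.9 and 11.9 against 49.5, 32.8, 27.4 and 45.1 in KO libraries and 11.6, 12.6, 13.5 and 12.6 against 27.1, 42.00, 34.9 and 38.5 in WT libraries. That fall was -1.60 ± 0.21 (adjusted p = 1.54e-06) in KO and -1.42 ± 0.21 (adjusted p = 7.92e-06) in WT cells. Psmc3ip, the recombination factor, rose by 2.41 ± 0.67 (adjusted p = 0.00474) in KO and 2.67 ± 0.67 (adjusted p = 0.00174) in WT cells, and neither edgeR nor DESeq2 made the KO call. Pomp, no member here, encodes the chaperone that completes the beta ring. Its values were 95.3, 56.1, 84.2 and 92.7 in KO libraries and 81.8, 85.4, 92.9 and 106 in WT libraries at day 0. They were 292, 283, 245 and 293 in KO libraries and 253, 229, 204 and 232 in WT libraries at day 1. Day 1 did not overlap day 0 in either genotype. Pomp rose at day 1 by 1.78 ± 0.16 in KO and 1.32 ± 0.16 in WT cells.

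Between the genotypes, 8 of 48 members were lower in KO than in WT cells at day 0, where 4.93% of all genes were lower, and 0 were higher, where 4.82% were. The 8 were 3 activators (Psme2, Psme3, Psme4), 3 lid subunits (Psmd3, Psmd7, Psmd11), the immunoproteasome gene Psmb8 and the alpha ring gene Psma3. The members' median difference was -0.14, against -0.00 for all genes tested. Under quantile normalization it was -0.02, with 24 members above and 24 below 0, and 4 members were called lower (3.67% of all genes) and 2 higher (3.76%). With limma, 4 members were higher at an unadjusted p under 0.05, and edgeR called 1 (4.55% of all genes) and DESeq2 2 (7.79%) higher. When limma was fitted to the 8 day 0 libraries alone, 0 of the 8 passed the adjusted threshold, where 0.2% of all genes were lower, although 8 members were lower at an unadjusted p under 0.05. Within groups, the members' median SD of log2 values was 0.37 in KO and 0.34 in WT libraries at day 0, 0.16 in KO and 0.15 in WT libraries at day 1, and 0.25 in KO and 0.13 in WT libraries at day 4. Of other cells' markers, 2 of 6 fibro-adipogenic, 1 of 4 smooth muscle and pericyte and 2 of 6 myofibre genes were called higher in KO cells at day 0, and none of these lower. The smooth muscle and pericyte markers summed to 251 to 663 in KO and 83.3 to 180 in WT libraries. The part of these markers in the differences was not tested.

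Psmd7, a lid subunit, had the smallest adjusted p of the 8, with normalised values of 58.2, 88.8, 81.2 and 63.9 in KO libraries and 123, 133, 137 and 128 in WT libraries at day 0. It was at 434, 392, 392 and 451 in KO libraries and 349, 358, 316 and 355 in WT libraries at day 1. Psmd7 was at 90.1, 89.05, 70.2 and 62.9 in KO libraries and 103, 121, 109 and 111 in WT libraries at day 4. All KO libraries lay below all WT libraries at day 0 and above them at day 1, and the KO over WT log2 fold change was -0.85 ± 0.14 (adjusted p = 0.000341) at day 0 and 0.27 ± 0.14 (adjusted p = 0.302), not called, at day 1. Psmd3, another lid subunit, was at 12.3, 13.9, 24.1 and 11.9 in KO libraries and 29.96, 28.4, 68.5 and 24.3 in WT libraries at day 0. It was at 215, 278, 289.5 and 206 in KO libraries and 199.9, 210.3, 340.1 and 217 in WT libraries at day 1. Psmd3 was at 27.4, 31.6, 37.4 and 25.1 in KO libraries and 35.7, 39.1, 40.1 and 36.1 in WT libraries at day 4. At day 0 the highest KO library lay just below the lowest WT library, replicate 3 was the highest in each genotype (as at days 1 and 4), and the fold change was -1.16 ± 0.27 (adjusted p = 0.00659). At days 1 and 4 it was 0.05 ± 0.27 and -0.32 ± 0.27, not called. Psme3 had the largest difference of the 8 (-2.08 ± 0.42, adjusted p = 0.0021), from the values given above. Psmb8 was lower in KO without overlap (-0.96 ± 0.25, adjusted p = 0.0156), a call lost without WT day 0 replicate 3 (log2 fold change -0.82, adjusted p = 0.0513 with limma). Psme4 was lower without overlap too (-0.48 ± 0.15, adjusted p = 0.04), a call lost without KO day 0 replicates 2, 3 or 4 or WT day 0 replicates 1, 3 or 4 (log2 fold change -0.49 to -0.42, adjusted p = 0.0552 to 0.106 with limma). Psme2 (-0.55 ± 0.16, adjusted p = 0.0344) was lost without KO day 0 replicates 1 or 2 or WT day 0 replicates 2 or 4 (log2 fold change -0.56 to -0.38, adjusted p = 0.0519 to 0.119 with limma). Psma3 (-0.37 ± 0.12, adjusted p = 0.0446) was lost without KO day 0 replicates 1, 2 or 3 or WT day 0 replicates 2, 3 or 4 (log2 fold change -0.39 to -0.32, adjusted p = 0.0528 to 0.118 with limma), and edgeR did not call it. Without WT day 0 replicate 4, 5 members were lower in KO cells. Without WT day 0 replicate 3, 2 members were higher.

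At day 1, 4 of 48 members (8.3%) were called higher in KO cells, a share near the 7.12% of all genes. Of the members 0 were lower, where 2.08% of all genes were, so all genes leaned to higher calls too. The 4 higher members were the activator Psme4, the lid subunits Psmd8 and Psmd11, and Psmb6, the catalytic gene of the caspase-like site. With limma 0 members were lower at an unadjusted p under 0.05, and edgeR and DESeq2 called 0 lower. Psme4 was higher by 0.94 ± 0.15 (adjusted p = 0.000108), the 1 call of the 4 that held under every setting. Psmd11 was at 200.0, 278, 206 and 190.3 in KO libraries and 248, 309, 376 and 372 in WT libraries at day 0. It was at 615, 616, 615 and 566 in KO libraries and 394, 386, 432 and 329 in WT libraries at day 1. Psmd11 was at 131, 124, 154 and 141 in KO libraries and 131, 125, 146 and 141 in WT libraries at day 4. The KO libraries lay above the WT libraries at day 1 without overlap (0.65 ± 0.14, adjusted p = 0.00215), overlapped them at day 0 (-0.57 ± 0.14, adjusted p = 0.00833) and at day 4 (0.02 ± 0.14). Psmb6 was at 317, 261, 264 and 337 in KO libraries and 347, 331, 346 and 329.5 in WT libraries at day 0. It was at 1061, 945, 816 and 957 in KO libraries and 737, 656, 529.5 and 657 in WT libraries at day 1. Psmb6 was at 174, 198, 156 and 171 in KO libraries and 238, 230.1, 233 and 218 in WT libraries at day 4. Its KO libraries were above the WT libraries at day 1 (0.55 ± 0.11, adjusted p = 0.00166) and below them at day 4 (-0.40 ± 0.11, adjusted p = 0.107), where the difference was not called. Psmd8 was at 464, 432, 399 and 424 in KO and 313, 274, 297 and 293 in WT libraries at day 1, without overlap. Its call (0.55 ± 0.17, adjusted p = 0.043) was lost without KO day 1 replicates 1, 2, 3 or 4 or WT day 1 replicates 1, 2, 3 or 4 (log2 fold change 0.51 to 0.58, adjusted p = 0.0599 to 0.124 with limma). DESeq2 did not call Psmd8 either. Quantile normalization left 1 call, Psme4 (4.31% of all genes were higher), and gave the members a median of -0.14 in place of 0.08. With the day 1 libraries alone 11 members were higher and 4 lower, where 12.8% of all genes were higher and 10.5% lower. The libraries also differed in markers at day 1: of 9 stem cell markers, 5 were lower and 2 higher in KO cells, Pax7 among the lower (-1.39 ± 0.23, adjusted p = 0.000167). Of 6 myofibre markers 5 were lower in KO cells, with a median of -2.11. Fibro-adipogenic markers, 2 of 6 called higher, summed to 306 to 637 in KO and 154 to 248 in WT libraries. The part of these markers was not tested.

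At day 4 limma called 0 of 48 members higher (0.53% of all genes) and 0 lower (0.524% of all genes) in KO cells. At an unadjusted p under 0.05, 6 members were lower and 0 higher; edgeR called 0, DESeq2 called 1 lower (0.498% of all genes), and limma after quantile normalization called 3 lower (0.718%). The lowest fold change was that of the deubiquitinase gene Psmd14, with 35.3, 34.97, 58.7 and 57.9 in KO and 69.7, 102, 78.6 and 79.1 in WT libraries (-0.83 ± 0.27, adjusted p = 0.203). The highest was that of Psmf1 (0.60 ± 0.78, adjusted p = 0.933). The members' median was -0.15, against -0.03 for all genes.

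The KO minus WT difference was also tested directly between days, with its sign kept, so a move up from below 0 counts as larger. It was larger at day 1 than at day 0 for 9 of 48 members (7.48% of all genes). For 0 members it was smaller (4.10% of all genes). The 9 were Psme2, Psme3, Psme4, Psmd3, Psmd7, Psmd11, Psmb6, Psmb8 and Psma3. All of them except Psmb6 were called lower in KO cells at day 0, and only Psme4, Psmd11 and Psmb6 were called higher at day 1. The difference of Psme3, for example, went from -2.08 at day 0 to 0.01 at day 1. This test uses the same day 0 and day 1 libraries as the differences above. The change was 1.42 ± 0.21 (adjusted p = 5.73e-05) for Psme4, 1.38 ± 0.36 (adjusted p = 0.012) for Psmb8 and 1.23 ± 0.19 (adjusted p = 0.000127) for Psmd11, the 3 that held under every setting. Psme3 changed by 2.08 ± 0.59 (adjusted p = 0.0211), a call that edgeR, DESeq2 and the fit to the day 0 and day 1 libraries alone did not make. Psma3 (0.55 ± 0.16, adjusted p = 0.0287) was lost without KO day 0 replicates 2 or 3 or WT day 0 replicate 4 or KO day 1 replicate 1 or WT day 1 replicate 3 (log2 fold change 0.47 to 0.51, adjusted p = 0.0539 to 0.0703 with limma). Psmd3 (1.21 ± 0.38, adjusted p = 0.0375) was lost without KO day 0 replicates 1, 2 or 4 or WT day 0 replicate 3 or KO day 1 replicates 2 or 3 or WT day 1 replicates 1, 2 or 4 (log2 fold change 0.89 to 1.18, adjusted p = 0.0529 to 0.0772 with limma). With limma 3 members were smaller at an unadjusted p under 0.05; edgeR called 0 and DESeq2 3 (7.97% of all genes). Quantile normalization gave 4 larger calls (4.76% of all genes) and gave the members a median change of -0.17 in place of 0.22. From day 1 to day 4 the difference dropped for 3 members (3.21% of all genes) and grew for 0 (0.759% of all genes; 0 at an unadjusted p under 0.05 with limma, and 0 called by edgeR and by DESeq2). They were Psme4 (-1.07 ± 0.21, adjusted p = 0.00261), Psmb6 (-0.95 ± 0.16, adjusted p = 0.000568) and Psmd7 (-0.79 ± 0.20, adjusted p = 0.0205), and the last was lost without KO day 1 replicate 4 or WT day 4 replicate 2 (log2 fold change -0.75, adjusted p = 0.0512 to 0.052 with limma).

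**Figure D5:**
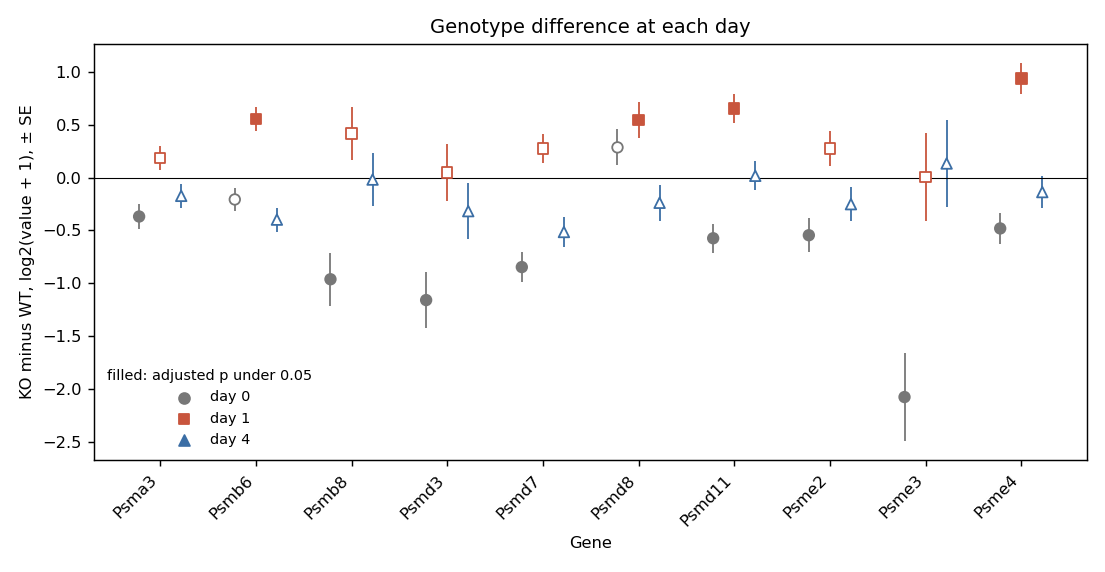
KO minus WT log2 difference with its SE for 10 members at days 0, 1 and 4; filled points have an adjusted p under 0.05 with limma. Psme4 lies at -0.48 at day 0, 0.94 at day 1 and -0.14 at day 4.

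Genes that work with the proteasome but lie outside the naming rule are given for the same contrasts. Of 18 proteasome-associated genes tested, 12 rose and 4 fell at day 1 in KO cells, where 24.2% of all genes rose and 21.5% fell. In WT cells 6 rose and 7 fell, where 27.7% of all genes rose and 24.9% fell. The medians were 1.3 in KO and 0.2 in WT cells. Adrm1, a ubiquitin receptor of the cap, rose by 2.28 ± 0.22 in KO and 1.60 ± 0.22 in WT cells, and the deubiquitinase genes Usp14 and Uchl5 rose by 1.36 ± 0.20 and 1.85 ± 0.21 in KO and 1.07 ± 0.20 and 0.91 ± 0.21 in WT cells. Ecpas, which encodes a scaffold that holds cap and barrel together, fell by 1.47 in KO and 1.67 in WT cells on the log2 scale. The shuttle gene Ubqln1 was 79.3, 96.8, 71.6 and 99.3 in KO and 33.99, 38.1, 30.6 and 25.9 in WT libraries at day 1, and 34.01, 15.1, 33.3 and 29.2 in KO and 90.6, 67.4, 53.5 and 71.7 in WT libraries at day 0. Its genotype difference was -1.35 ± 0.23 (adjusted p = 0.000473) at day 0 and 1.40 ± 0.23 (adjusted p = 0.000169) at day 1, a change of 2.76 ± 0.33. Between genotypes, 6 of the 18 were higher in KO cells at day 1 (7.12% of all genes), among them Akirin2, a factor for import of proteasomes into the nucleus (1.74 ± 0.27), Zfand5, an activator of the proteasome (1.47 ± 0.15), and Sem1, the smallest lid subunit (0.50 ± 0.15). At day 0, 3 were lower in KO cells (4.93% of all genes), among them Zfand2a (-2.24 ± 0.48). Zfand5 and Akirin2 fell in WT cells at day 1 (-2.82 ± 0.15 and -2.12 ± 0.27).

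Among 10 genes of the p97 complex, which extracts proteins for the proteasome, and of regulators of proteasome transcription, 6 rose at day 1 in KO cells (24.2% of all genes). In WT cells 6 rose (27.7% of all genes) and 1 fell (24.9%). Vcp, which encodes p97 itself, rose by 1.24 ± 0.18 in KO and 1.10 ± 0.18 in WT cells. Nfe2l1, the transcription factor known to raise proteasome genes when the proteasome is inhibited, rose by 1.36 ± 0.30 in KO cells and was at 0.31 ± 0.30 (adjusted p = 0.42) in WT cells, and the change of its genotype difference was not called (1.05 ± 0.43, adjusted p = 0.123). Nfe2l2, the related factor of oxidative stress, was higher in KO than in WT cells at day 1 (0.53 ± 0.15) and fell there in WT cells (-0.88 ± 0.15). Of 6 ubiquitin and E1 genes, 2 rose at day 1 in KO cells and 1 rose and 2 fell in WT cells, too few genes to set against those shares. Of 13 genes of antigen processing and its regulators, 4 rose and 4 fell at day 1 in KO cells, and 4 rose and 3 fell in WT cells, shares near those of all genes (24.2% rose and 21.5% fell in KO cells, 27.7% rose and 24.9% fell in WT cells). Irf1, a factor of the interferon response, was lower in KO cells at day 1 (-1.16 ± 0.24), while the class I genes H2-K1 and H2-D1 were higher (0.78 ± 0.17 and 0.78 ± 0.15). At day 4 against day 1, 5 of the 13 fell in KO (23.4% of all genes) and 6 in WT cells (22.6%).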

How the data were processed

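The deposited table holds the authors' normalised signal of 17111 genes in 24 libraries. Tests on the table itself showed that a deposited value is a read count with 0.5 added, over a library size in M reads that has been scaled: 100% of values came back as whole reads within 0.02. The kit was SMART-Seq v4, according to the labels' protocols, and FastQC, STAR, RSEM, limma and mm39 are named, without versions, in the submitters' processing notes. Strand use is not given in the sources used here. All libraries carry batch label 1. A floor of 3 counts corresponds to a value of 0.145 to 0.32, and floors cover counting error only.

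The filter (4 or more libraries reaching a value of 1) left 16985 genes to test and took out 126. Log2(value + 1) was modelled with limma 3.58.1 under R 4.3.3, using a mean for each of the 6 groups, all 24 libraries and a trend of variance on mean. Its 11 contrasts were tested two-sided, with Benjamini-Hochberg adjustment over all genes and a threshold of 0.05. Ratios were tested with an exact two-sided permutation test. Alternatives were the recovered counts in edgeR 4.0.16 or in DESeq2 1.42.0, quantile normalization, other filters, pseudocounts of 0.5 and 5, no trend, only the groups compared, a replicate block and each library left out. Promoter windows are RefSeq's.

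The members and all lists were chosen with earlier results of these data known. Library values were to be given for the catalytic pairs, activators, assembly genes and inhibitor and for the extremes of each subclass, and some of the last are given as ranges. A gene of the table overlaps 10 of the 48 members (Psma2, Psma3, Psma4, Psmb7, Psmb9, Psmc3, Psmc3ip, Psmd1, Psmd13 and Psme1), and reads of such pairs may be split wrongly.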

Additional observations from a re-analysis of the deposited data

Results flagged for a closer look

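Of 288 groups of 4 libraries (48 genes in 6 groups), 16 had 1 library whose gap to the nearest of the other three passed Dixon's critical value for 4 samples. For independent, normally distributed values chance passes it in about 1 in 20 groups. Here it was applied to values without a log, some of few reads, so the number cannot be set against that rate. At day 0, Psmb9 stood at 6.33 in KO replicate 2, the others being at 0.0276 to 0.166, and at 4.20 in WT replicate 3, the others being at 0.0332 to 0.0365. Psmf1 stood at 17.3 in KO replicate 4 (others 0.431 to 0.608) and at 25.1 in WT replicate 3 (others 0.110 to 0.432). Psmd3 stood at 24.1 in KO replicate 3 (others 11.9 to 13.9) and at 68.5 in WT replicate 3 (others 24.3 to 30.0) at day 0, and at 340.1 in WT replicate 3 (others 199.9 to 217) at day 1. Psmb9, Psmf1 and Psmd3 were thus flagged in the same WT library of day 0, so these flags are not separate events. Psmb10 stood at 32.4 in 1 WT library of day 0 (others 2.81 to 6.57). Psmb11, near the floor, stood at 1.96 in 1 WT library of day 0 (others 0.565 to 0.620), at 0.504 in 1 KO library of day 1 (others 0.0782 to 0.139) and at 0.911 in 1 WT library of day 1 (others 0.0688 to 0.164). The rest lay closer: Psmd6 at 361 in 1 KO library of day 1 (others 274.6 to 279.6), Psmd11 at 566 in 1 KO library of day 1 (others 615 to 616), Psma7 at 177 in 1 KO library of day 4 (others 134 to 138), Psmc3 at 142 in 1 WT library of day 4 (others 137 to 138) and Psme1 at 52.7 in 1 WT library of day 4 (others 61.5 to 61.8). By group, 3 of the 16 were in KO and 5 in WT libraries of day 0, 3 in KO and 2 in WT libraries of day 1, and 1 in KO and 2 in WT libraries of day 4.

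The KO minus WT difference changed between days for 12 cases that passed the limma interaction test at an adjusted p under 0.05. From day 0 to day 1 the change on the log2 scale was 2.08 for Psme3, 1.42 for Psme4, 1.38 for Psmb8, 1.23 for Psmd11, 1.21 for Psmd3, 1.12 for Psmd7, 0.82 for Psme2, 0.76 for Psmb6 and 0.55 for Psma3. From day 1 to day 4 it was -1.07 for Psme4, -0.95 for Psmb6 and -0.79 for Psmd7.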

How the results depend on the processing

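Most calls of the rise at day 1 and of the fall at day 4 did not depend on the processing, and most genotype calls did. Beyond the constructions named, the cause was not tested. For KO against WT, quantile normalization gave 2 higher and 4 lower members at day 0, 1 higher at day 1 and 3 lower at day 4. For day 4 against day 0 it gave 17 higher and 7 lower in KO and 25 higher and 3 lower in WT cells. It gave 2 lower for day 1 against day 0 and 1 higher for day 4 against day 1 in WT cells. With their sign kept, 4 genotype differences were then larger and 2 smaller at day 1 than at day 0. Of all 16985 genes quantile normalization called 4720, 3654, 808 and 537 for these, in that order. It reversed Psmd9 at day 4 against day 1 in KO cells (0.04), Psmb1 (0.31), Psma2 (0.20), Psmd11 (0.12), Psmb6 (0.13) and Psma3 (0.34) at day 4 against day 0 in KO cells. In WT cells it reversed Psmd2 (0.30), Psmb6 (0.51), Psma1 (0.13), Psma3 (0.23) and Psme2 (0.07) at day 4 against day 0. Fits to only the groups compared, which have fewer libraries, gave 0 lower at day 0, 11 higher and 4 lower in KO cells at day 1, 5 higher at day 4 against day 0 in KO cells and 9 differences that dropped after day 1. Over 16985 genes these fits called 34 lower at day 0, and 2169 higher and 1789 lower at day 1. They called 2342 higher at day 4 against day 0 in KO cells and 1075 dropped differences, against 3794 and 546 in the main fit. The stricter filter gave 1 higher at day 0, 1 lower at day 1 against day 0 in KO cells, 1 higher at day 4 against day 1 in WT cells, and 1 difference smaller at day 1 and 5 that dropped after it. Of the 10946 genes kept by that filter, 745, 2464, 2876, 674 and 584 were called, in the same order. edgeR gave 1 higher at day 0, 1 higher at day 4 against day 1 and 6 higher at day 4 against day 0 in WT cells, where it called 772, 4070 and 2976 of 16985 genes. DESeq2 gave 2 higher at day 0, 1 lower at day 4 and 3 smaller differences at day 1. Without the trend 5 were lower at day 0, and a pseudocount of 5 gave 1 lower at day 1 against day 0 in KO cells and 2 smaller differences at day 1. Over 16985 genes the counts were 701 without the trend, and 3518 and 747 with that pseudocount.

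With each library left out, KO against WT gave 0 to 2 higher and 5 to 7 lower at day 0, 3 higher and 0 lower at day 1 and 0 at day 4. Over all genes these fits gave 754 to 896 higher and 755 to 923 lower at day 0. At day 1 they gave 900 to 1082 higher and 206 to 280 lower, and at day 4 60 to 97 higher and 46 to 96 lower. Day 1 against day 0 gave 43 to 46 higher and 1 to 2 lower in KO and 39 to 41 higher and 1 lower in WT cells. All genes gave 3715 to 4016 higher and 3228 to 3532 lower in KO cells there. In WT cells they gave 4314 to 4564 higher and 3846 to 4181 lower. Day 4 against day 1 gave 1 higher and 42 to 44 lower in KO and 1 to 2 higher and 41 to 43 lower in WT cells. For all genes it was 3931 to 4188 higher and 3667 to 3801 lower in KO cells. In WT cells it was 4152 to 4227 higher and 3491 to 3560 lower. Day 4 against day 0 gave 6 to 9 higher and 12 to 14 lower in KO and 7 to 11 higher and 10 to 14 lower in WT cells. Of all genes, 3362 to 3646 were then higher and 2870 to 3030 lower in KO cells. In WT cells 3754 to 4241 were higher and 2914 to 3190 lower. Genotype differences, with their sign kept, gave 8 to 11 larger and 0 to 2 smaller at day 1, and 0 grown and 2 to 4 dropped after it. For all genes these were 1046 to 1360 larger, 497 to 804 smaller, 80 to 131 grown and 403 to 528 dropped. The labels do not say that replicate numbers pair samples. Deviations of same-numbered libraries correlated at -0.03 to 0.27 over 60 pairs, and other pairs at -0.19 to 0.16, and 9 of 24 libraries correlated best with their own number. With the replicate block, which took Psma3 at day 0 (adjusted p = 0.0591 with limma) and Psmd8 at day 1 (adjusted p = 0.0559) over the threshold, 7 members were lower at day 0 and 3 higher at day 1, and 45 in KO and 39 in WT cells rose at day 1 against day 0. Of 16985 genes the block gave 822 lower at day 0 and 1196 higher at day 1, and 4135 rose in KO and 4720 in WT cells.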
